A study of Mus musculus with 6 samples.

Results

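The genes described here were 33 mouse genes of the unfolded protein response and of protein folding in the endoplasmic reticulum (ER), chosen by gene name. All 33 had a usable probe among the 36028 named genes on the array, and 32 were among the 24648 genes tested. Derl3, a member of the derlin family of ER membrane proteins, gave a signal well above background on only 2 of the 6 arrays and was not tested. Where a gene had more than 1 probe, the brightest stood for it.

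The study asked how mouse prostate cancer cells respond to colony-stimulating factor 1 (CSF-1), the growth factor of macrophages, once they carry its receptor CSF-1R. Its 6 single-colour Agilent arrays measured RNA of N18-CFMS cells in 3 groups of 2. Control cells received no added CSF-1, and the 24H CSF1 and 48H CSF1 groups were given recombinant mouse CSF-1 (100 ng/mL), which the labels time at 24 h and 48 h while the methods text gives shorter times. The replicates came from independent experiments.

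All 3 groups were the same cells. N18 is a luciferase-transfected subclone of C2H, an epithelial line cloned from a tumour of the TRAMP mouse, in which a viral oncogene is driven in the prostate, and N18-CFMS cells are N18 cells transduced with a retrovirus carrying CSF-1R and sorted for it. The line is thus a single subclone, its receptor comes from a vector, and the cells secrete CSF-1 themselves, so that the Control cells were also exposed to the ligand. Csf1r had log2 levels between 4.88 and 5.34 on the 6 arrays, and it was called at neither time (log2 fold change 0.22 at 24 h, adjusted p = 0.367, and -0.07 at 48 h, adjusted p = 0.793). Throughout, a level is the log2 of the processed signal minus the log2 of the 75th percentile of that array, so that 0 is a spot as bright as the 75th percentile. A gene was called at a Benjamini-Hochberg adjusted p under 0.05 over all 24648 genes, from limma fitted to the 6 arrays.

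Between 58.7% and 72% of the 59305 spots of an array were well above background, and no spot was saturated. The array of 24H CSF1 replicate 1 was scanned on another slide than the other 5 and had the highest share of such spots. Of the epithelial and prostate markers reported, Krt8, Krt5 and Krt14 were well above background on all 6 arrays, Epcam on 1 array and Cdh1 and Tmprss2 on none. Of 10 macrophage markers, Lyz2 and Sfpi1 were well above background on no array and 5 were on all 6 arrays. Of these 5, Itgam had log2 levels of 5.4 and 5.23 in Control, 5.06 and 4.7 at 24 h and 4.92 and 4.4 at 48 h. Cd14 had 0.98 and 1.08 in Control and between 1.69 and 1.92 on the stimulated arrays, and Mrc1 at most -2.74 in Control and at least 0.72 on the stimulated arrays. Ptprc ran from -4.01 to -2.99 and Emr1 from -2.9 to -2.48 over the 6 arrays. The summed linear level of the macrophage list, in multiples of the 75th percentile, ran from 40 to 44.7 in Control, from 33.1 to 40.4 at 24 h and from 26.4 to 35.7 at 48 h. Itgam was by far the brightest of the list, so this sum mostly follows Itgam, whereas Cd14 and Mrc1 were higher on the stimulated arrays. Of the epithelial markers, Krt8 had log2 levels of -3.04 and -2.37 in Control, -1.91 and -2.03 at 24 h and -0.88 and -0.58 at 48 h. The part of these markers in the results was not tested.

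The unfolded protein response adjusts the folding capacity of the ER to the load of proteins that enter it. Its sensors IRE1 (gene Ern1), PERK (Eif2ak3) and ATF6 span the ER membrane. IRE1 splices the mRNA of XBP1, PERK phosphorylates eIF2alpha, which slows translation in general while favouring that of ATF4, and ATF6 is cut in the Golgi to release a transcription factor. XBP1 and ATF6 act on chaperone and degradation genes, ATF4 and CHOP (Ddit3) on genes of amino acid supply and of cell death. Secretory cells depend on this system, and tumour cells often use it.

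The DNA elements through which these factors act are shown first. The genes were chosen by name and not by these elements. Genes of this response are, however, known in part as targets of these factors. The shares below are thus a description and are not independent of the choice of genes. RefSeq promoter windows (build GRCm38.p6, from 250 bases before to 50 after the annotated start) were found for 29 of the 33 genes, and the elements were searched on both strands. The ER stress element, read as CCAAT, any 9 bases and CCACG, is bound by ATF6 together with the general factor NF-Y. It was present in the windows of 9 of the 29 genes (31%), against 0.137% of all 27025 genes in the promoter table. The matches are given below in capitals for the fixed letters and in lower case for the spacer, each read 5′ to 3′ on the strand that holds the element.
Hspa5, chr2:34772025-34772043, 65 to 47 bases before the start: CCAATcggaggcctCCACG
Hsp90b1, chr10:86705638-86705656, 212 to 194 bases before the start: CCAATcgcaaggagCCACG
Hsp90b1, chr10:86705533-86705551, 107 to 89 bases before the start: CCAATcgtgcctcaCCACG
Dnajc3, chr14:118937827-118937845, 105 to 87 bases before the start: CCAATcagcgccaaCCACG
Pdia6, chr12:17266491-17266509, 98 to 80 bases before the start: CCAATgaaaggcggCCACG
Calr, chr8:84847075-84847093, 162 to 144 bases before the start: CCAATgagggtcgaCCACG
Canx, chr11:50325800-50325818, 145 to 127 bases before the start: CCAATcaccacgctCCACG
Creld2, chr15:88819520-88819538, 126 to 108 bases before the start: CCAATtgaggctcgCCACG
Syvn1, chr19:6046532-6046550, 44 to 26 bases before the start: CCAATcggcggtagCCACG
Derl3, chr10:75893242-75893260, 156 to 138 bases before the start: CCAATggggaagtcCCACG
The spacers differed from each other, and Hsp90b1 alone among the 9 had 2 matches.

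The 150 bases before the start of Hspa5, which encodes BiP, the HSP70 of the ER, show where its element lies (chr2:34771940-34772089, plus strand, element in capitals).
Hspa5: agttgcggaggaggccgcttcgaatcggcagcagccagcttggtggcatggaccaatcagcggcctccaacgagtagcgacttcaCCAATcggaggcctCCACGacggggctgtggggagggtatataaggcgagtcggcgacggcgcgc
Dnajb9, which encodes the BiP co-chaperone ERdj4, moved opposite to Hspa5 on these arrays, but Hspa5 was not called. A link between an element and the direction of change was not tested. The stretch of the same length before the start of Dnajb9 held none of the elements searched (chr12:44210069-44210218, minus strand).
Dnajb9: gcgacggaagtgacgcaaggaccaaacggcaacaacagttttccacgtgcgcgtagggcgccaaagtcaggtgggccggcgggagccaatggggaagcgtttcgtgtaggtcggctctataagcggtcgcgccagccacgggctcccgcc

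A second form of the ER stress element, ATTGG, any base and CCACG, was present in 2 of the 29 windows (6.9%, against 0.0444% of all genes). The ATF4 element, read as TGATG, any base and AA, was present in 4 of them (13.8%, against 4.51% of all genes). The XBP1-type element, TGACG followed by TGG, was in none of the 29 windows and in 0.714% of all genes. The matches of the first pair of elements were these.
Herpud1, second form, chr8:94386377-94386387, 52 to 42 bases before the start: ATTGGgCCACG
Dnajb11, second form, chr16:22857852-22857862, 8 to 18 bases after the start: ATTGGcCCACG
Herpud1, ATF4 element, chr8:94386317-94386324, 112 to 105 bases before the start: TGATGcAA
Chac1, ATF4 element, chr2:119351049-119351056, 193 to 186 bases before the start: TGATGcAA
Asns, ATF4 element, chr6:7693225-7693232, 23 to 16 bases before the start: TGATGaAA
Trib3, ATF4 element, chr2:152344039-152344046, 15 to 22 bases after the start: TGATGtAA
A match says only that these letters stand in the window, and a missing match only that they do not.

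**Figure D1:**
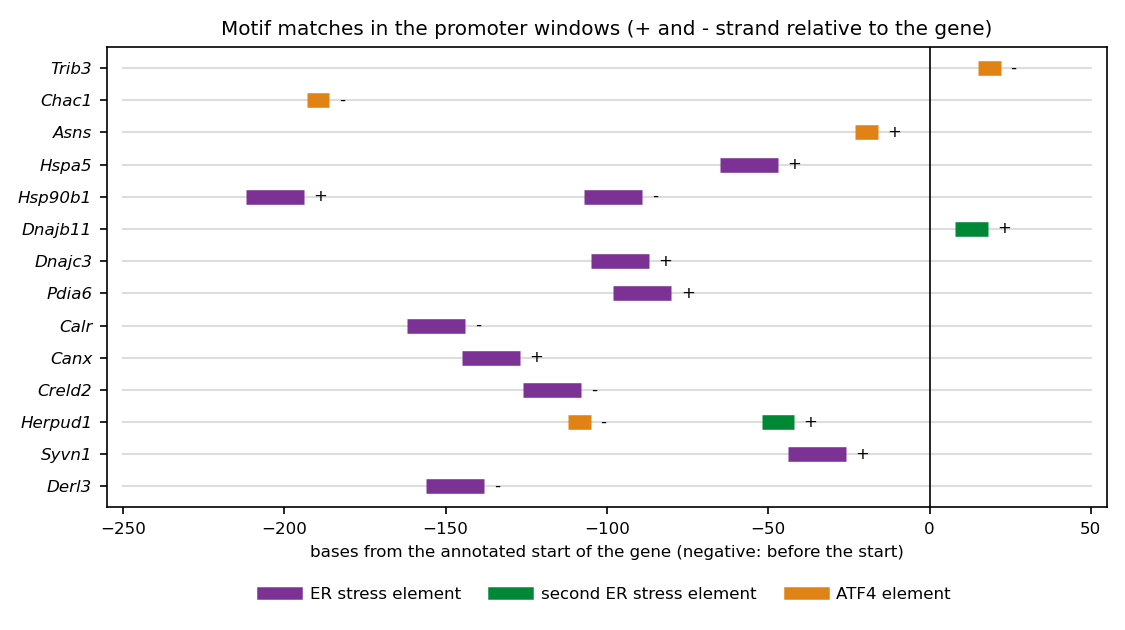
Positions of the matches in the promoter windows of the 14 genes that had any, in bases from the annotated start, with the strand of each match beside it. The ER stress elements lay before the start in all 9 genes that had one, and the matches of Trib3 and Dnajb11 lay after it.

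The genes of this response did not move together. Most of the folding machinery stood below Control after CSF-1 by less than 2-fold, whereas Trib3 and Dnajb9 stood more than 2-fold above it at both times, and Ddit3 at 48 h. At 24 h, 3 of the 32 genes were called higher (Trib3, Dnajb9 and Edem1), beside 8.02% of all genes tested, and 3 were called lower (Atf5, Pdia6 and Calr), beside 5.99%. At 48 h, 3 were called higher (Trib3, Dnajb9 and Ddit3), beside 6.58% of all genes, and 3 lower (the same Atf5, Pdia6 and Calr), beside 7.38%. As a share of the 32 genes, each of these counts came to 9.38%, which is near the background, so that nothing about the genes as a set is read from these counts. The split also varied with the scaling. Beside each split stands the share of all genes called in either direction, which was 14% at each time as reported. At 24 h the split was 3 higher and 2 lower under quantile normalization (11.6%) and 1 and 7 under median centring (19.9%). With normexp background correction it was 4 and 8 (17.9%), and with normexp and quantile normalization 4 and 7 (16%). At 48 h the split was 2 higher and 1 lower under quantile normalization (13.1%) and likewise under median centring (12.6%). With normexp it was 4 and 10 (19.4%), and with normexp and quantile normalization 5 and 7 (18.8%). What follows describes which of the genes moved and by how much. In bulk RNA, fewer cells with a transcript and less of it per cell cannot be told apart.

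As a description without a test, values below Control were more frequent than among all genes. The log2 fold change was below 0 in 24 of the 32 genes at each time, against 45.5% of all genes at 24 h and 55.2% at 48 h. At an unadjusted p under 0.05, 13 genes were lower at 24 h (40.6%, beside 14.2% of all genes) and 14 at 48 h (43.8%, beside 18.8%). On the higher side these counts were 4 (12.5%, beside 17.1%) and 5 (15.6%, beside 12.1%). In 21 genes both 24 h arrays lay below both Control arrays (65.6%, beside 27.7% of all genes), and in 18 genes both 48 h arrays did (56.2%, beside 35%). Both stimulated arrays lay above both Control arrays in 4 genes at 24 h (12.5%, beside 31.3%) and in 6 at 48 h (18.8%, beside 23.8%).

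The size of the shift was small. The median log2 fold change of the 32 genes was -0.29 at 24 h and -0.24 at 48 h, beside medians of 0.04 and -0.04 over all genes. When each array was centred on its median in place of its 75th percentile, the median over all genes moved to -0.25 and -0.14 and that of the 32 genes to -0.57 and -0.34, a shift that moves every gene of an array alike. The distance of the 32 genes from all genes, -0.33 at 24 h and -0.19 at 48 h, was smaller under quantile normalization (-0.23 and -0.12) and with normexp background correction and quantile normalization (-0.19 and -0.15). Of the 32 genes, 21 stood below Control at each time under all 6 scalings tried, and 4 at 24 h and 7 at 48 h stood above it under all 6. The genes are bright ones: with all genes sorted by brightness into 4 equal bins, 20 of the 32 were in the brightest bin, in which the median log2 fold change was -0.1 at 24 h and -0.16 at 48 h, and none was in the dimmest, in which it was 0.36 and 0.09. The part of brightness in the shift was not tested.

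At the 2-fold threshold with an unadjusted p under 0.05, 2 genes were higher at 24 h (Trib3 and Dnajb9, beside 5.86% of all genes) and 3 at 48 h (Trib3, Dnajb9 and Ddit3, beside 4.66%). None was lower at either time, beside 1.83% of all genes at 24 h and 1.83% at 48 h.

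**Figure D2:**
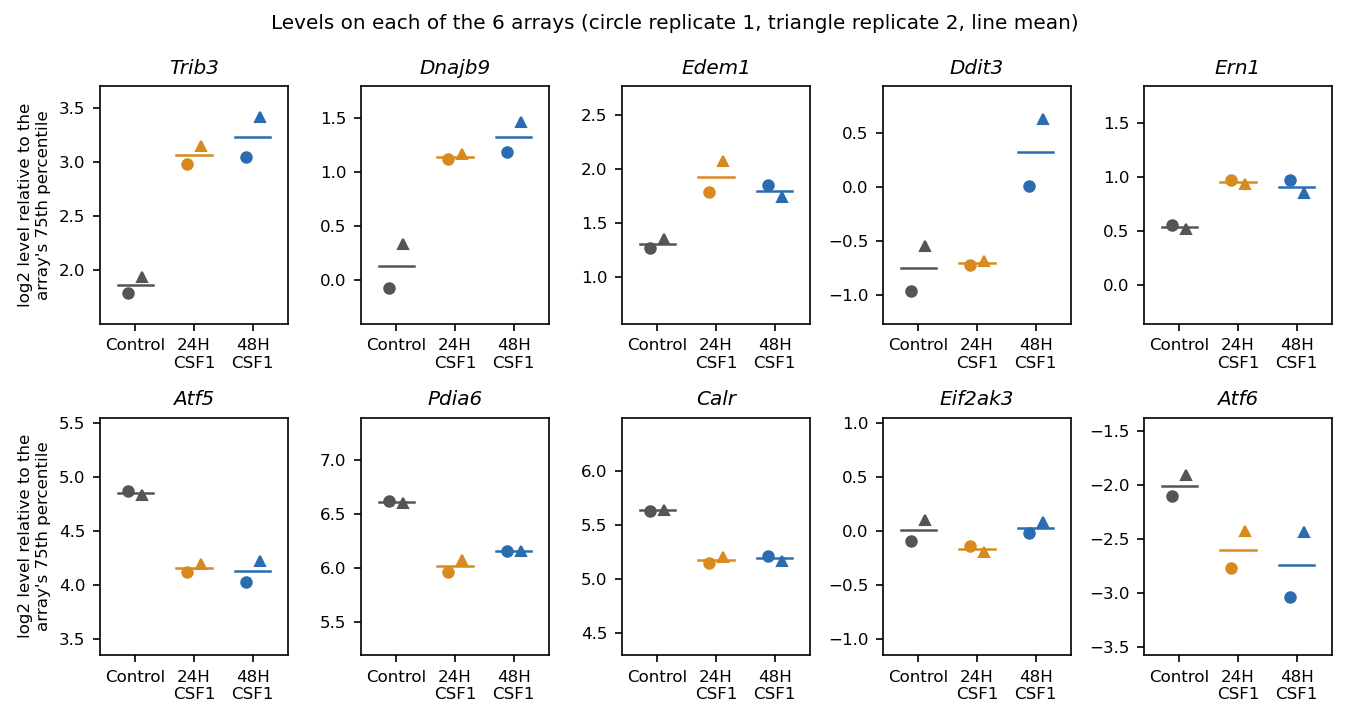
Log2 level, relative to the 75th percentile of the array, of the 7 called genes and the 3 sensors on each of the 6 arrays, each panel spanning the same log2 range. In Trib3, Dnajb9, Edem1 and Ern1 all 4 stimulated arrays lie above the Control arrays, in Atf5, Pdia6, Calr and Atf6 they lie below, and Ddit3 stands apart at 48 h only.

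The array files place these probes on build mm9. Of the genes called higher, the probe of Trib3 lies at chr2:152163161-152163220, that of Dnajb9 at chr12:45307313-45307372, that of Edem1 at chr6:108808920-108808979 and that of Ddit3 at chr10:126732518-126732821. Of the genes called lower, the probe of Atf5 lies at chr7:52067627-52067686, that of Pdia6 at chr12:17291070-17291129 and that of Calr at chr8:87366192-87366251.

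The sensors gave 3 different patterns, and none of them was called. Ern1, the kinase and nuclease IRE1, had log2 levels of 0.56 and 0.52 in Control, 0.97 and 0.94 at 24 h and 0.97 and 0.85 at 48 h. All 4 stimulated arrays stood above both Control arrays, by 0.42 ± 0.11 on the log2 scale at 24 h (SE, n = 2 per group, adjusted p = 0.061) and by 0.37 ± 0.11 at 48 h (adjusted p = 0.0822). Atf6, which encodes the membrane-bound transcription factor, had log2 levels of -2.1 and -1.91 in Control, -2.77 and -2.43 at 24 h and -3.04 and -2.44 at 48 h. Its stimulated arrays were all below Control, with log2 fold changes of -0.6 ± 0.24 (adjusted p = 0.16) and -0.74 ± 0.24 (adjusted p = 0.105), and its arrays spread widely. Eif2ak3, the eIF2alpha kinase PERK, had log2 levels of -0.09 and 0.1 in Control, -0.14 and -0.2 at 24 h and -0.02 and 0.08 at 48 h. Its 48 h arrays overlapped Control, and its log2 fold changes were -0.18 ± 0.12 (adjusted p = 0.384) and 0.02 ± 0.12 (adjusted p = 0.927).

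Among the transcription factors, Atf5 fell at both times and Ddit3 rose at 48 h. Atf5, a relative of ATF4 whose translation also depends on eIF2alpha, had log2 levels of 4.87 and 4.83 in Control, 4.12 and 4.19 at 24 h and 4.03 and 4.22 at 48 h. Its stimulated arrays were close to each other and clear of Control. The fall was 1.62-fold at 24 h (log2 fold change -0.69 ± 0.12, adjusted p = 0.0224) and 1.65-fold at 48 h (-0.72 ± 0.12, adjusted p = 0.0208). Ddit3, the cell death factor CHOP, had log2 levels of -0.96 and -0.55 in Control, -0.72 and -0.69 at 24 h and 0.01 and 0.63 at 48 h. The 24 h arrays lay between the Control arrays, and both 48 h arrays lay above all others, though they differed from each other by more than the arrays of the other groups. The log2 fold change was 0.05 ± 0.25 at 24 h (adjusted p = 0.922) and 1.07 ± 0.25 at 48 h, a 2.1-fold rise (adjusted p = 0.0474). This call was narrow: it was made under 8 of 23 alternative settings, and it was lost under quantile normalization (adjusted p = 0.0507) and with outlier spots kept (adjusted p = 0.0505).

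Atf4 and Xbp1 were not called. Atf4, the main effector of the PERK branch, ranged from 6.96 to 7.11 in Control and from 6.42 to 6.68 over the stimulated arrays on the log2 level scale, with log2 fold changes of -0.52 ± 0.14 (adjusted p = 0.0667) and -0.47 ± 0.14 (adjusted p = 0.0878). A second Atf4 probe gave -0.49 and -0.55. Xbp1, the target of the IRE1 nuclease, had log2 fold changes of 0.02 and -0.24, and its stimulated arrays overlapped Control at both times. The array measures the sum of Xbp1 transcripts as its probe sees them, and their splicing was not measured here.

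The genes downstream of PERK and ATF4 went different ways. Trib3, a pseudokinase induced by ATF4 and CHOP, had log2 levels of 1.79 and 1.94 in Control, 2.98 and 3.15 at 24 h and 3.05 and 3.42 at 48 h. No stimulated array came near Control. The rise was 2.29-fold at 24 h (log2 fold change 1.2 ± 0.16, adjusted p = 0.0128) and 2.58-fold at 48 h (1.36 ± 0.16, adjusted p = 0.00948), the largest of the 32 genes at both times. The other 3 genes of this arm were not called. Asns, asparagine synthetase, had log2 fold changes of -0.27 ± 0.14 (adjusted p = 0.252) and -0.54 ± 0.14 (adjusted p = 0.0588), and its 4 stimulated arrays lay below Control. Chac1, a glutathione-degrading enzyme induced by ATF4, had log2 levels of 5.04 and 5.56 in Control, 4.73 and 4.58 at 24 h and 4.98 and 5.55 at 48 h. It stood below Control at 24 h only, by a log2 fold change of -0.64 ± 0.26 (adjusted p = 0.164). Ppp1r15a, the phosphatase subunit GADD34 that reverses PERK signalling, had 48 h log2 levels of 1.41 and 2.6, and a spread of this size allowed no call in either direction.

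Of the chaperones of the HSP70 and HSP90 families and their co-chaperones, Dnajb9 rose and the other 6 stood below Control. Dnajb9 had log2 levels of -0.07 and 0.34 in Control, 1.12 and 1.17 at 24 h and 1.19 and 1.47 at 48 h. All stimulated arrays lay above Control, and the rise was 2.02-fold at 24 h (log2 fold change 1.01 ± 0.18, adjusted p = 0.0256) and 2.29-fold at 48 h (1.2 ± 0.18, adjusted p = 0.0176). Its second probe gave log2 fold changes of 1.08 and 1.12. Hspa5 had log2 levels of 6.32 and 6.36 in Control, 5.75 and 6.08 at 24 h and 5.83 and 5.99 at 48 h. Every stimulated array was below both Control arrays, by a log2 fold change of -0.43 ± 0.15 at each time (adjusted p = 0.122 and 0.123), which is 1.35-fold lower.

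Hsp90b1, the ER form of HSP90 also called GRP94, had log2 fold changes of -0.51 ± 0.16 (adjusted p = 0.0946) and -0.53 ± 0.16 (adjusted p = 0.0872). Dnajc3, the BiP co-chaperone p58IPK that also inhibits PERK, had -0.47 ± 0.11 (adjusted p = 0.0519) and -0.4 ± 0.11 (adjusted p = 0.0787). The remaining genes of the class were Hyou1, an exchange factor of BiP, with -0.43 and -0.48, Sdf2l1, a partner of BiP co-chaperones, with -0.41 and -0.46, and Dnajb11, the co-chaperone ERdj3, with -0.33 and -0.4. In each of these 6 genes both Control arrays lay above all 4 stimulated arrays, and none of the 6 passed the adjusted threshold. Over all genes, both Control arrays lay above both stimulated arrays in 27.7% at 24 h and in 35% at 48 h. The share of all genes with this order at both times was not counted.

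The isomerases and lectins held the other 2 genes called lower. Pdia6, a protein disulfide isomerase that also acts on IRE1, had log2 levels of 6.62 and 6.6 in Control, 5.96 and 6.07 at 24 h and 6.15 and 6.15 at 48 h. The groups did not overlap, and the fall was 1.51-fold at 24 h (log2 fold change -0.6 ± 0.11, adjusted p = 0.0252) and 1.38-fold at 48 h (-0.46 ± 0.11, adjusted p = 0.0473). A dimmer second probe of Pdia6 gave -0.25 and -0.35, neither of them called. Calr, the calcium-binding lectin chaperone calreticulin, had log2 levels of 5.63 and 5.64 in Control, 5.15 and 5.2 at 24 h and 5.21 and 5.17 at 48 h. These replicates differed by at most a few hundredths, and the fall was 1.38-fold (-0.46 ± 0.1, adjusted p = 0.0427) and 1.36-fold (-0.45 ± 0.1, adjusted p = 0.0469). Its membrane-bound relative calnexin (Canx) had log2 fold changes of -0.38 ± 0.13 (adjusted p = 0.113) and -0.22 ± 0.13 (adjusted p = 0.323). The isomerase Pdia3, which works with these lectins, had -0.28 and -0.23, and Pdia4 had -0.05 and -0.04 with arrays that overlapped Control. The secreted stress proteins Manf and Creld2 had log2 fold changes of -0.23 and -0.05 at 24 h and of -0.35 and -0.29 at 48 h.

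Over all 14 folding genes (chaperones, isomerases, lectins and secreted proteins), 13 had a log2 fold change below 0 at each time and Dnajb9 was the exception. Their median was -0.4 at 24 h and -0.4 at 48 h. With 2 arrays in each group, the 95% interval of Hspa5 at 24 h ran from -0.81 to -0.05, not adjusted for the number of genes. Hspa5 (log2 fold change -0.43 ± 0.15) was not called at that time, whereas Calr, with a similar change and less spread (-0.46 ± 0.1), was.

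The genes of ER-associated degradation did not share this direction. Edem1, a lectin that hands misfolded glycoproteins to degradation, had log2 levels of 1.26 and 1.35 in Control, 1.78 and 2.07 at 24 h and 1.85 and 1.74 at 48 h. All stimulated arrays were above Control, with a 1.54-fold rise at 24 h (log2 fold change 0.62 ± 0.14, adjusted p = 0.0445) and a log2 fold change of 0.49 ± 0.14 at 48 h that was not called (adjusted p = 0.0774). Herpud1, a scaffold of the degradation complex, went the other way, from log2 levels of 2.77 and 3.07 in Control to 2.15 and 2.18 at 24 h and 2.01 and 2.42 at 48 h. Its log2 fold changes, -0.75 ± 0.19 (adjusted p = 0.0547) and -0.7 ± 0.19 (adjusted p = 0.0647), were as large as that of Atf5 but more spread, and were not called. The ubiquitin ligase Syvn1 (HRD1) had 0.1 and 0.29, its partner Sel1l -0.3 and -0.11, Derl1 -0.01 and -0.09 and Derl2 0.06 and -0.21, none of them called. Sec61b, a subunit of the channel through which proteins enter the ER, had -0.17 and -0.01.

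**Figure D3:**
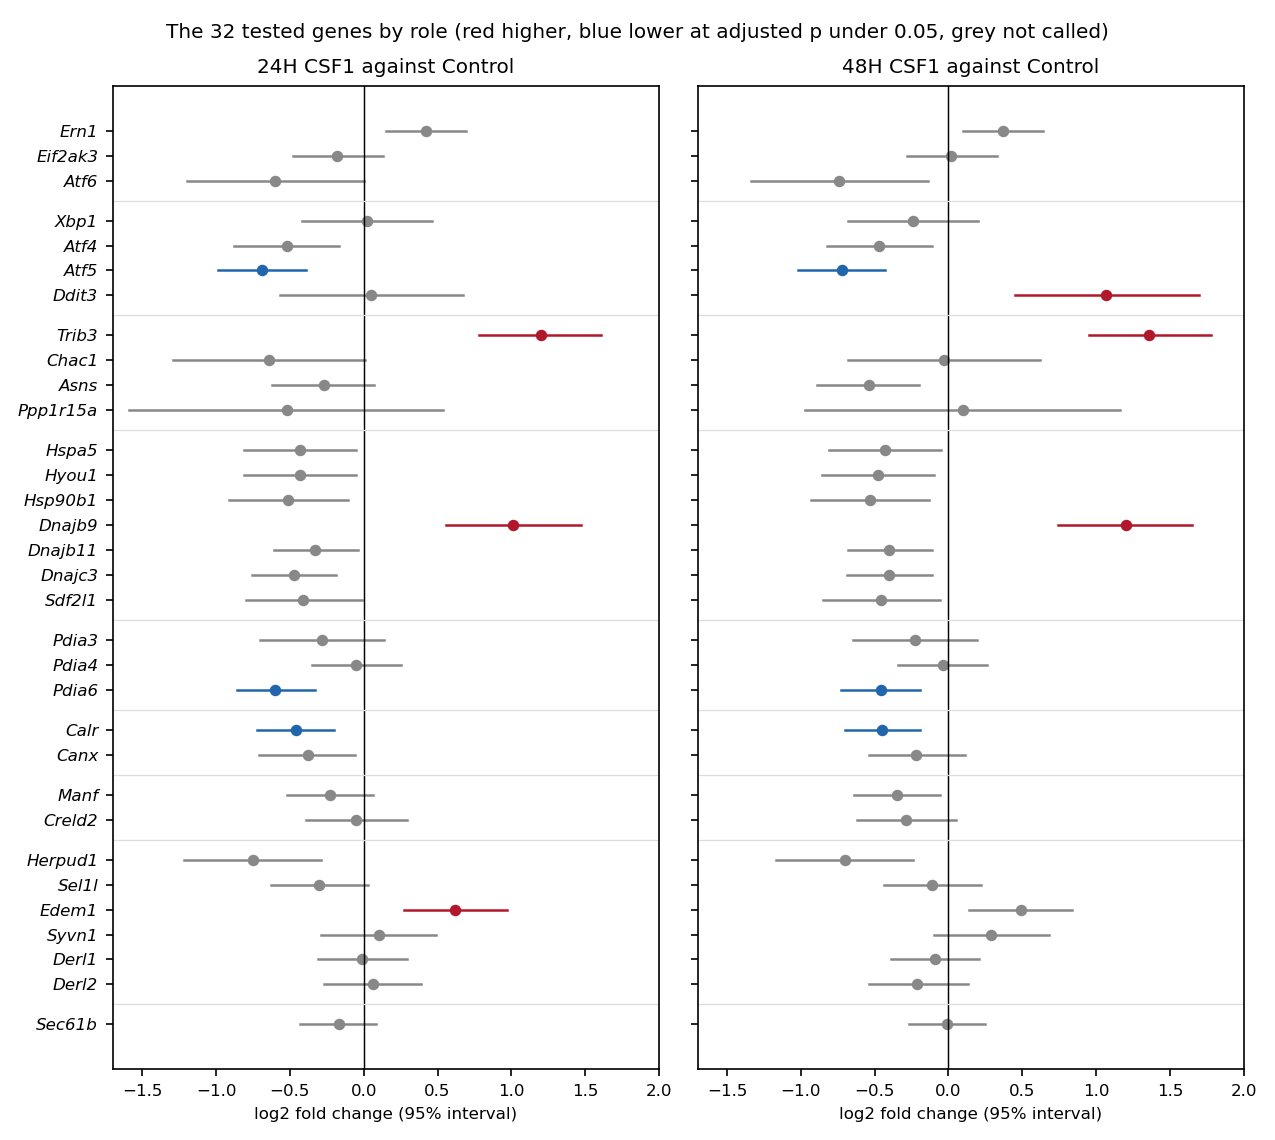
Log2 fold changes of the 32 tested genes with their 95% intervals (limma, not adjusted for the number of genes) at 24 h and 48 h, in blocks by role from the sensors at the top to the translocon gene at the bottom. The chaperones, isomerases and lectins lie left of 0 except Dnajb9, and intervals of genes that were not called can still exclude 0.

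Between 48 h and 24 h no gene was called by limma, neither among the 32 nor among all 24648 (0% higher and 0% lower). Ddit3 had the largest difference of the 32, a 2.03-fold higher level at 48 h (log2 fold change 1.02 ± 0.25, adjusted p = 0.203), and it alone passed an unadjusted p under 0.05, beside 4.38% of all genes higher and 9.24% lower. It was also the only gene past 2-fold at that level, beside 0.868% of all genes higher and 1.4% lower. The 48 h arrays lay above the 24 h arrays in 10 genes (31.2%, beside 14.2% of all genes) and below them in 5 (15.6%, beside 33.7%). Those 10 included Ddit3, Chac1, Eif2ak3 and Sel1l, for which the log2 differences were 1.02, 0.61, 0.2 and 0.18. The median log2 difference of the 32 genes was 0.01, beside -0.08 over all genes. The comparisons with Control share the Control arrays, so their values are set side by side here and no agreement between them is drawn.

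The genes with and without an ER stress element are set side by side as a description, with no test. Of the 11 genes with either form of the element, 10 were tested, 9 of these stood below Control at each time and Syvn1 stood above. The median of those 10 was -0.45 at 24 h and -0.42 at 48 h on the log2 scale. Of the 18 tested genes whose window held neither form, 11 stood below Control at each time, with medians of -0.17 and -0.04. The genes called higher (Trib3, Dnajb9, Edem1 and Ddit3) were all in the second set, and of those called lower, Pdia6 and Calr were in the first and Atf5 in the second. Apart from Syvn1 and Herpud1, the 10 tested genes with an element were folding genes. The median of all 14 folding genes was -0.4 at each time. Of the folding genes with neither form, Sdf2l1 had -0.41 and -0.46, Pdia3 -0.28 and -0.23, Pdia4 -0.05 and -0.04, and Dnajb9 rose. The part of role in the difference between the sets was not tested. Of the 4 genes with an ATF4 element, Trib3 rose, and Asns and Herpud1 had log2 fold changes below 0 at both times. Chac1 stood below Control at 24 h (-0.64) and overlapped it at 48 h (-0.03).

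The other genes of the pathway, 131 in lists written from general knowledge, show what surrounded these 33. Of 126 tested, 8 were called higher and 17 lower at 24 h, and 11 higher and 13 lower at 48 h, with medians of -0.11 and -0.21. Over all genes tested the shares called, against which the counts of each list are to be read, were 8.02% higher and 5.99% lower at 24 h and 6.58% higher and 7.38% lower at 48 h. Other ER folding factors had 1 of 25 called higher and 4 lower at 24 h, and 1 higher and 2 lower at 48 h. The thioredoxin-domain isomerase Txndc5 fell by 0.72 on the log2 scale at 24 h (adjusted p = 0.0191) and by 0.49 at 48 h (adjusted p = 0.0495). The oxidases that recharge the isomerases were each called at 1 time. Ero1lb rose by 0.68 on the log2 scale at 24 h (adjusted p = 0.0158) and stood at 0.17 at 48 h (adjusted p = 0.326), and Ero1l stood at 0.69 at 24 h (adjusted p = 0.1) and rose by 0.95 at 48 h (adjusted p = 0.0473). Genes of translocation and early secretion had none of 27 called higher and 1 and 2 called lower, among them the COPII coat gene Sec13 with -0.54 (adjusted p = 0.0455) and -0.6 (adjusted p = 0.0348).

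In the list of other degradation genes, 1 of 18 was called higher at 24 h, 2 at 48 h and none lower. Ngly1, the cytosolic enzyme that strips N-glycans from retrotranslocated proteins, had the largest change, with log2 levels of -3.9 and -3.69 in Control, -2.17 and -2.47 at 24 h and -2.38 and -2.01 at 48 h. It rose 2.78-fold (adjusted p = 0.0106) and 3.04-fold (adjusted p = 0.00887). The ligase gene Rnf5 rose by 0.49 on the log2 scale at 48 h (adjusted p = 0.0495).

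Other targets of ATF4 and CHOP held genes called in both directions, and most were not called. Of 28 tested, 3 were called higher and 6 lower at 24 h, and 5 higher and 6 lower at 48 h, with medians of -0.33 and -0.23. Nupr1, a stress-induced chromatin protein, rose 3.41-fold (adjusted p = 0.0184) and 3.8-fold (adjusted p = 0.0158). Atf3, a stress-induced transcription factor, had log2 levels of -3.33 and -3.27 in Control, -1.62 and -1.68 at 24 h and -1.88 and -1.03 at 48 h, a 3.13-fold and a 3.58-fold rise (adjusted p = 0.022 and 0.0174). Bcl2l11, the pro-apoptotic BIM, rose by 1.44 (adjusted p = 0.0139) and 0.95 (adjusted p = 0.0391) on the log2 scale. On the lower side, and named after their values were seen, stood the serine synthesis genes Psat1 (-1.2 and -1.24, adjusted p = 0.00683 and 0.00599) and Phgdh (-1.07 and -1.04, adjusted p = 0.00748 and 0.00773). Among 12 aminoacyl-tRNA synthetases, many of which are ATF4 targets, none was called higher and 4 and then 2 were called lower, with Lars at -0.55 (adjusted p = 0.0309) and -0.68 (adjusted p = 0.0187).

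Of 16 other stress sensors, eIF2alpha kinases and regulators, 3 were called higher at each time. Eif2ak2, the interferon-inducible eIF2alpha kinase PKR, rose 3.09-fold (adjusted p = 0.0214) and 3.17-fold (adjusted p = 0.0209), in contrast to Eif2ak3. Casp12, a caspase of the ER, rose by 0.71 (adjusted p = 0.0226) and 1.02 (adjusted p = 0.00901) on the log2 scale. Creb3l1, an ATF6-like factor of the ER membrane, fell 3.01-fold at 24 h (adjusted p = 0.0101) and 2.17-fold at 48 h (adjusted p = 0.0251). At 24 h the list had 2 genes called lower and at 48 h 1.

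A pair of lists outside the ER pathway give the scale of what else moved. Chaperones of the cytosol and mitochondria had none of 19 called higher and 7 and 8 called lower, with medians of -0.24 and -0.44. Among them the mitochondrial Hspe1 had log2 fold changes of -0.58 (adjusted p = 0.0245) and -0.73 (adjusted p = 0.0145), and the small heat shock gene Hspb8 of -0.67 (adjusted p = 0.0309) and -1 (adjusted p = 0.0116). The 6 genes of MHC class I peptide loading, which also works in the ER lumen, had 5 called higher and none lower at each time. The median of these 6 was 1.36 at 24 h and 2.22 at 48 h on the log2 scale. Tapbp, the peptide-loading chaperone tapasin, had log2 levels of 1.68 and 1.85 in Control, 3.15 and 3.43 at 24 h and 4.06 and 4.19 at 48 h, a rise of 2.89-fold (adjusted p = 0.00569) and 5.16-fold (adjusted p = 0.00169). The transporter genes Tap1 and Tap2 were not well above background on either Control array. Against the dimmest probe well above background there, or their own signal where higher, they were at least 4.42-fold and 8.19-fold higher at 24 h (adjusted p = 0.00398 and 0.00559) and at least 7.3-fold and 41.9-fold higher at 48 h (adjusted p = 0.00197 and 0.00138). Calr and Pdia3, which belong to the same loading complex, stood below Control on the same arrays. Calr was called at both times, and Pdia3 (-0.28 and -0.23 on the log2 scale) at neither.

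**Figure D4:**
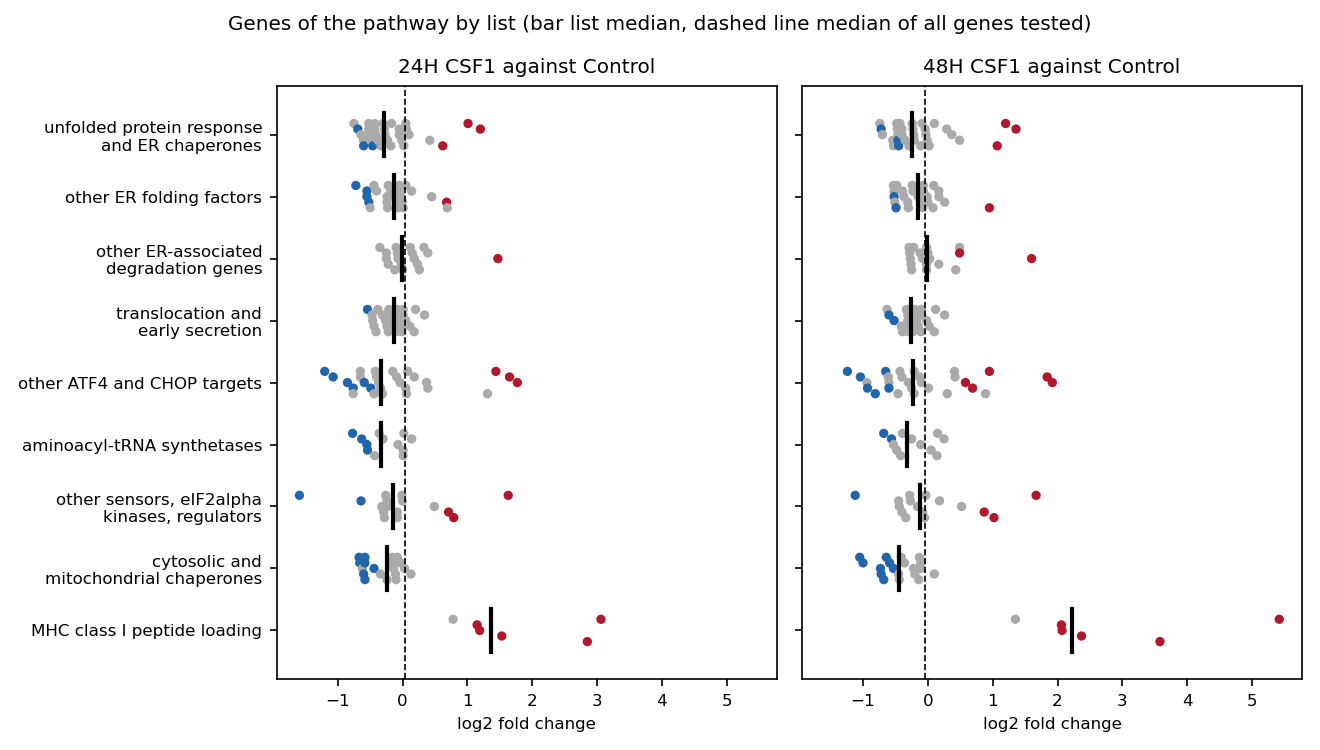
Log2 fold change of each tested gene at 24 h and 48 h, with the 33-gene list at the top and the other lists under it. The bar is the median of a list, the dashed line the median of all genes tested, and red and blue points were called higher and lower. The points of Tap1 and Tap2, at the far right, are fitted values against a Control group not well above background. The medians lie below the dashed line at both times in all lists but MHC class I peptide loading and, at 48 h, the other degradation genes.

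At 24 h and 48 h fewer genes were called when any 1 array was left out, also when that array was outside the comparison. Each such fit has fewer residual degrees of freedom, and the part of this in the loss was not tested. At 24 h none of the 32 genes was called without Control replicate 1, without 24H CSF1 replicate 1 or without 24H CSF1 replicate 2, and Dnajb9 alone was called without Control replicate 2. At 48 h none was called without Control replicate 1, Dnajb9 alone without Control replicate 2, Trib3 alone without 48H CSF1 replicate 2, and Ddit3, Dnajb9 and Trib3 without 48H CSF1 replicate 1. The share of all genes called fell as well, from 14% at 24 h to between 3.65% and 5.34% when an array of either group compared was left out. Over all 23 alternative settings, Trib3 was called under 17 at 24 h and 20 at 48 h, Dnajb9 under 16 and 19, Atf5 under 15 and 16, Pdia6 under 11 and 8, Calr under 11 and 9 and Edem1 at 24 h under 10. The signs of the 7 called genes at the times of their calls were the same in each of these fits.

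**Figure D5:**
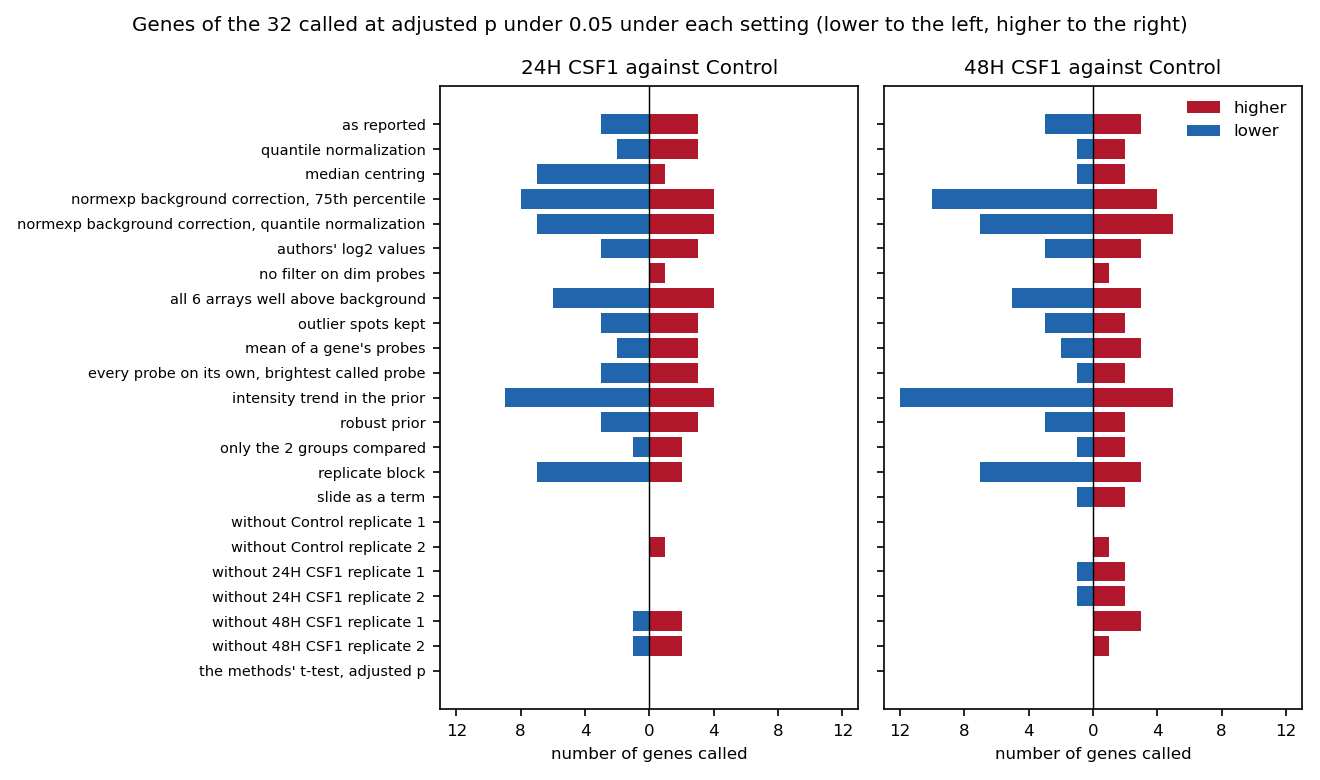
Number of the 32 genes called higher (red, to the right) and lower (blue, to the left) at an adjusted p under 0.05, as reported at the top and under each other setting below. Counts ran from 0 to 13 at 24 h and from 0 to 17 at 48 h.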

How the data were processed

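The authors hybridised total RNA to Agilent arrays, and the deposited scanner files hold for each spot the intensity (background-corrected processed signal) from Agilent Feature Extraction 11.0.1. The authors deposited log2 values of 44569 probes as well, which by comparison with the scanner files appear centred on each probe. By array they correlated with the uncentred levels at between -0.428 and 0.312, and for centred values at 0.999 or more (slope 1). The column medians were 0.0259 and -0.0378 (Control), 0.173 and 0.00707 (24H CSF1) and -0.00936 and -0.0226 (48H CSF1). How the probes were centred is not given in the sources used here, and the table was an alternative. Spots flagged as outliers were left out, spots of a probe were averaged, and each array was scaled to its 75th percentile over non-control spots. The brightest probe stood for a gene, and a gene entered the tests where some group had it well above background on each of its arrays. Tests used limma 3.58.1 (R 4.3.3, lmFit and eBayes, 6 arrays in 1 fit, 2-sided, 3 residual and 2.39 prior degrees of freedom). The fit was tested on simulated data. The 33 genes and all lists were chosen with earlier results of these data known. Named genes are all 33 and, of each other list, up to 3 with the largest change among those called. Psat1 and Phgdh are exceptions, named after their values were seen. Gene names are those of the array design. Promoter windows were RefSeq's (GRCm38.p6). The number of arrays, 2 in each group, limits the precision. Other scalings, background corrections, filters, probe rules and fits were run as alternatives. Protein sequences were not used here, and some markers of the epithelial and prostate list are not reported here.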

Additional observations from a re-analysis of the deposited data

How the results depend on the processing

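Of the 32 genes, 6 were called at 24 h, 6 at 48 h and 0 between the times, with median log2 fold changes of -0.29, -0.24 and 0.01. Counts moved by over 1.5 times as follows. Beside each stands the share of all genes called under that setting, which was 14% at each time as reported. Normexp background correction gave 12 genes at 24 h (17.9%) and 14 at 48 h (19.4%), and with quantile normalization 11 (16%) and 12 (18.8%). Quantile normalization alone gave 3 at 48 h (13.1%), as did median centring (12.6%) and every probe tested on its own (13.8%). Without a filter on dim probes 1 gene, Trib3, was called at each time (3.66% and 2.41%). With the filter asking for all 6 arrays it was 10 at 24 h (17.4%). An intensity trend in the prior gave 13 (19.1%) and 17 (22.2%), and a fit of the 2 groups compared alone 3 (10.3%) and 3 (8.58%). With the slide as a term 3 genes were called at 48 h (8.58%). At 24 h the slide term leaves 1 array in the stimulated group, and the median was -0.26, beside -0.01 over all genes. That term takes out 24H CSF1 replicate 1, which was alone on its slide, so the value within a slide is that without this array. The methods' t-test gave 0 and 0 after adjustment (0% and 0%), and 11 and 13 at an unadjusted p under 0.05. At the study's thresholds, in which a 2-fold change and an unadjusted p are asked for, it gave 2 (5.49%) and 2 (4.71%). At those thresholds limma gave 2 (7.68%), 3 (6.48%) and, between the times, 1 (2.27%), which was Ddit3. Leaving out 1 array at a time gave 0 to 3 genes at 24 h, 0 to 3 at 48 h and 0 to 0 between the times. For most of these moves the cause was not tested.

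Among other moves, the medians went to -0.57, -0.34 and 0.2 under median centring, to -0.18 at 48 h under quantile normalization, to -0.21 and -0.19 with normexp and quantile normalization, and to -0.03 between the times with the slide as a term. Leaving out 1 array, they ran from -0.34 to -0.23 at 24 h, from -0.31 to -0.23 at 48 h and from -0.03 to 0.08 between the times. Of the 7 genes called at either time, Ddit3 at 24 h, where it was not called, changed sign: it was -0.23 under median centring, -0.03 with normexp and quantile normalization and -0.16 without Control replicate 1, with a range of -0.16 to 0.26 over the arrays left out. Over the 32 genes, both times and 23 settings, 1257 values kept their sign and side of the threshold, 116 calls were lost, 61 were gained, and 38 values changed sign in genes and at times that were not called, among them Xbp1, Derl1, Derl2 and Creld2 at 24 h and Sec61b at 48 h besides Ddit3.

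The labels give each group the replicate numbers 1 and 2 and do not say what a number shares. Deviations of same-numbered arrays correlated at 0.128 (Control and 24H CSF1), 0.094 (Control and 48H CSF1) and 0.199 (24H CSF1 and 48H CSF1) over 24648 genes. With the number as a replicate block, 9 genes were called at 24 h (2 higher and 7 lower), beside 15.4% of all genes. At 48 h it was 10 (3 higher and 7 lower), beside 16.1%. Of the calls reported, Edem1 at 24 h was lost under the block (adjusted p = 0.0513).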

Other observations

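Derl3, the gene left out of the tests, had log2 levels between -5.03 and -4.29 in Control, between -4.35 and -3.97 after 24 h and between -4.92 and -4.39 after 48 h. It was well above background on 2 of the 6 arrays. Its promoter window held an ER stress element.

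Of the 33 genes, 6 had more than 1 probe well above background on all arrays, 14 probes in all. The probes of Dnajb9, Atf4 and Pdia6 had the same sign at both times. Those of Sec61b and Derl2 differed in sign at 24 h, with log2 fold changes of -0.17, 0.09 and -0.16 for Sec61b and 0.06, -0.33 and -0.05 for Derl2. At 48 h the probes of Sec61b (-0.01, 0.07 and 0.01) and Derl1 (-0.09 and 0.02) differed in sign. None of these values was called.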
